A study of Mus musculus with 2 samples.

Results

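Cytosolic ribosomal protein genes encode the proteins of the small (40S) and large (60S) ribosomal subunits. They were taken by name from an RNA-sequencing table of mouse intestinal Th17 cells and ILC3s. Taken were all rows named Rpl or Rps with a number, with or without a single suffix letter (a, l, x or y) and a digit. Rplp0, Rplp1, Rplp2 and Rpsa were added. Rpl36al, with a longer suffix, was not taken and is described with other ribosome components. The names matched 82 of 17048 rows. Of these, 31 encode 40S proteins and 45 encode 60S proteins including the stalk, and 6 are paralog genes, that is additional copies of a ribosomal protein gene (Rpl3l, Rpl7l1, Rpl22l1, Rpl39l, Rps27l and Rps4y2). Rpl26 was not analysed here.

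One library came from Th17 cells, helper T cells that make interleukin 17, sorted as GFP-positive T cells from IL17A_IRES_GFP knock-in mice. The other came from ILC3s, innate lymphoid cells that share much of the same cytokine program without an antigen receptor, sorted as GFP-positive cells from IL23R_GFP knock-in mice. All mice were C57BL/6 aged 6 to 8 weeks, and the tissue was small-intestinal lamina propria. Each group was 1 library, and how many animals went into a library is not stated in the labels. The reporter marks cells by transcription of the gene that carries it, so cell type, mouse line and reporter differ together between the groups. The question of the design was how the transcripts of the 2 cell types differ.

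The Th17 library held 17599180 reads over the listed genes and the ILC3 library 22576436. Values are the authors' size-factor-normalized counts, in which 1 read is worth 1.18 in Th17 against 0.850 in ILC3. No difference here has a replicate check and no test between the groups was possible. Intervals are exact 95% intervals of a ratio or a share. They cover counting error only, because PCR copies cannot be recognised without molecular identifiers, and they describe the pair of libraries rather than the cell types. In RNA from bulk cells, fewer cells of a type and less RNA per cell cannot be told apart. Of the markers that define the sorted cells, Cd3e, a T cell receptor chain, stood at 9897 in Th17 against 651 in ILC3. Kit and Ncr1, receptor genes of ILC3s, stood at 3963 and 1.18 in the Th17 library and at 21092 and 1725 in the ILC3 library. The library labelled Th17 thus held Kit transcripts and the library labelled ILC3 held Cd3e transcripts.

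Ribosomes are built in the nucleolus from ribosomal RNA and a single copy of most ribosomal proteins, so the genes of these proteins are usually transcribed at matched, high levels. Their mRNAs begin with a cytosine followed by a run of pyrimidines, the 5′ terminal oligopyrimidine (TOP) motif, through which mTORC1 signalling and the RNA-binding protein LARP1 control their translation. Lymphocytes that are activated and divide are known for raising ribosome production. TOP motifs act on translation, which RNA sequencing of total transcripts does not measure.

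The sequences around the annotated transcription starts are shown because pyrimidine tracts there were more frequent among the members than among all genes. RefSeq promoter sequences of build GRCm38.p6 were matched for 61 of the 82 members. A C at the annotated start followed by 4 bases that are each C or T was found at 13 of the 61 (21.3%), against 813 of 27025 (3.01%) of all genes in that table. A tract of at least 8 such bases that began with C within 20 bases of the start, a definition chosen after seeing the data, was found for 30 of 61 (49.2%), against 14.5% of all genes. The windows below run 5′ to 3′ over 15 bases before the start and 15 bases from it on the coding strand. Capitals mark the longest run of at least 5 bases that starts with C and goes on with C or T, and the run includes the annotated start in the first 7 genes, listed by falling Th17 over ILC3 ratio. The last 4 are shown because they lie at the edges of the members' ratios or are a paralog. Base 16 of their windows, the annotated start, is not a C followed by 4 bases of C or T. The run of Rpl34 nevertheless covers base 16, which is a T. For Rpl34, which has more than 1 annotated start in the table, the window with the longer run is given, and for Rpl35a the window with a tract.
Rpl35a: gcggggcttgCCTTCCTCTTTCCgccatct
Rpl28: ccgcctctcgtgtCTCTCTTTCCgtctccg
Rps10: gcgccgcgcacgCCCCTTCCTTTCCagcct
Rpl14: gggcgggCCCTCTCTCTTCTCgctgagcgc
Rps6: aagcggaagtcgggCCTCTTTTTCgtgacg
Rpl38: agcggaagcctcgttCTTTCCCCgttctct
Rps27: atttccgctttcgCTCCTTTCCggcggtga
Rpl34: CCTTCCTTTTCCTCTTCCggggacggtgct
Rps26: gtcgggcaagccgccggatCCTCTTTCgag
Rpl10: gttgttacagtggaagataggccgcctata
Rpl22l1: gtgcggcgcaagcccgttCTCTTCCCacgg

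Ratios of genes with and without a C at the annotated start followed by 4 bases of C or T overlapped. The 13 genes with it had a median log2(Th17/ILC3) of 0.61, with a range of -0.38 to 1.22. The 43 genes of the table without it, paralogs left out, had a median of 0.80 and a range of -0.06 to 2.76. Some of these 43 have a tract that runs across the start, such as Rpl34 (20 bases from position -17) and Rpl27a (20 bases from -4). The split is therefore not one of genes with and without a tract. A further 20 genes that were not in the promoter table had a median of 0.65. A missing match says only that these letters are not in this window at the annotated start.

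Transcripts of the ribosomal protein genes were higher in the Th17 library than in the ILC3 library, by a nearly common factor. Their median log2 ratio was 0.71, which is 1.64-fold, over the 81 members with a mean of at least 10 normalized counts. The middle 50% of these members lay between 0.59 and 0.90, an interquartile range of 0.31. All 13719 genes at the same minimum had a median of 0.02 and an interquartile range of 1.49. Log2 ratios were taken after adding 1 to both values, while folds were computed without the added 1.

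**Figure D1:**
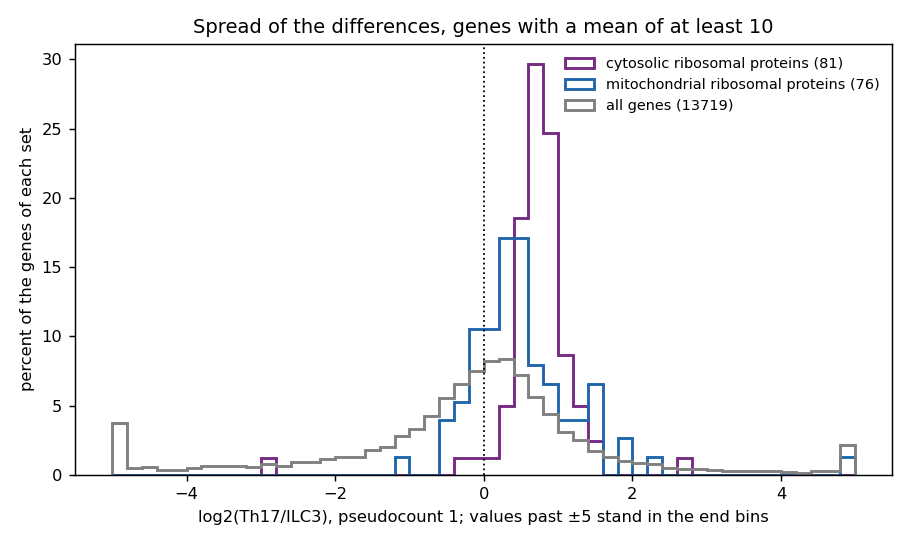
Percent of the genes of each set (vertical axis) by log2(Th17/ILC3) in steps of 0.2 (horizontal axis), for 81 cytosolic ribosomal protein genes, 76 mitochondrial ribosomal protein genes and all 13719 genes with a mean of at least 10 normalized counts. The cytosolic genes form a narrow peak around their median of 0.71, whereas all genes spread around 0.02.

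Part of the narrow spread goes with high counts. Among genes with a mean of at least 1000 normalized counts, the interquartile range was 0.29 for 74 members, against 0.92 for 4062 genes of all kinds, whose median was 0.17. Of the 81 members with a mean of at least 10, 78 were higher in Th17 by any size, against a background of 50.7% of all genes. Rpl10, Rps27 and Rpl39l were the exceptions.

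On the Th17 side, the share of members past a 2-fold limit was close to that of all genes. Of 79 members that reached 100 normalized counts in either library, 14 were past 2-fold higher in Th17, or 17.7%. This is near the background of 16.2% of 10431 genes, and the count is no result about the members. None was past 2-fold higher in ILC3, against a background of 16%. The remaining 65 members were past 2-fold in neither direction. Rpl3l, Rpl39l and Rpl30 did not reach 100 in either library.

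The share of reads, which does not depend on the size factors, was also higher in Th17. The members held 5.04% of the Th17 reads (5.03 to 5.05, Clopper-Pearson) and 3.29% of the ILC3 reads (3.28 to 3.299), a ratio of 1.53 (1.527 to 1.537). The 40S genes held 2.01% of Th17 and 1.28% of ILC3 reads, and the 60S genes 3.02% of Th17 and 2.001% of ILC3 reads. The summed normalized counts of 40S genes were 0.666 times those of 60S genes in Th17 against 0.640 times in ILC3. Both subunits were therefore higher in Th17, and the balance between them differed little.

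Several other gene groups differed between the same libraries. Of 10431 genes that reached 100 normalized counts in either library, 16.2% were past 2-fold higher in Th17 and 16% in ILC3. All 17 measured proliferation genes were past 2-fold higher in Th17, with summed normalized counts of 40525 in Th17 against 7411 in ILC3. Of 18 immediate early genes, which are transcribed quickly after stimulation or stress, 13 were past 2-fold higher in ILC3, and their sums were 211199 in Th17 against 897491 in ILC3. Markers of other cells of the tissue were mostly higher in ILC3. Of 8 stroma and endothelium markers 7 were past 2-fold higher in ILC3, with sums of 2395 in Th17 against 11421 in ILC3. Col1a1, a defining collagen gene, had 14.1 in Th17 against 1153 in ILC3, while the endothelial genes Cdh5 and Kdr were at 0 in Th17.

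Of 5 measured B and plasma cell markers 4 reached 100 normalized counts, and all 4 were past 2-fold higher in ILC3 (sums over 6 rows of 896.03 in Th17 against 10913 in ILC3). Of 8 epithelium markers 7 reached 100, and 6 were past 2-fold higher in ILC3. Their sums were 203 in Th17 against 1241 in ILC3, with Epcam at 28.2 in Th17 against 145 in ILC3. Of 8 macrophage and dendritic cell markers only 3 reached 100, and 2 were past 2-fold higher in ILC3. Their sums were 648 in Th17 against 1058 in ILC3, with Csf1r at 239.9 in Th17 against 153 in ILC3. None of the markers of these other cells that reached 100 was past 2-fold higher in Th17. The part of proliferation, immediate early transcription and other cell types in the ribosomal protein difference was not tested.

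**Figure D2:**
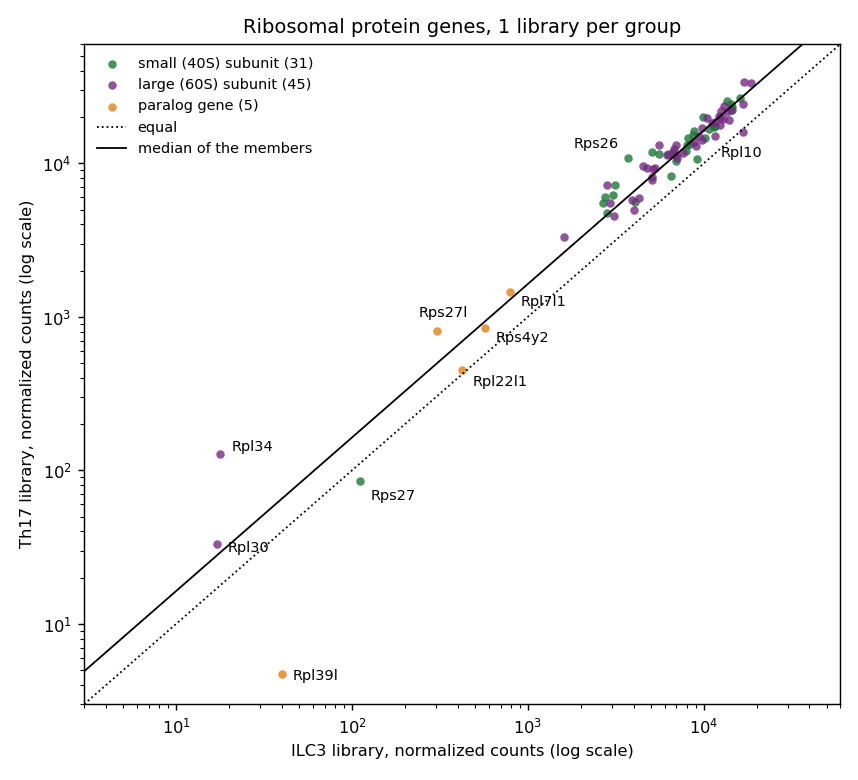
Normalized counts of 81 ribosomal protein genes in the Th17 library (vertical axis, log scale) against the ILC3 library (horizontal axis, log scale), with subunits in colour. Most points lie along the solid line of the members' median, 1.64-fold above equality (dotted); Rpl3l, at 0 in ILC3, is not drawn.

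The order of levels was alike in both libraries. Over the 76 genes without paralogs, Spearman's rho between the Th17 and the ILC3 level was 0.95 and Pearson's r 0.98, as a description across genes of the same libraries. Normalized counts of these genes had a median of 13039 in Th17 (32.9 to 33969) and of 8009 in ILC3 (17.0 to 18548.5). Per kilobase of transcript, the same 4 genes led both libraries. Rpl41, the shortest ribosomal protein, had 45537 normalized counts per kilobase in Th17 against 23857 in ILC3. Rplp1 had 35847 in Th17 against 24889 in ILC3, Rpl23a 34640.4 in Th17 against 22958 in ILC3, and Rpl17 31323 in Th17 against 21561 in ILC3. The lowest of the 76 per kilobase were Rpl34, Rps27 and Rpl30 in both libraries.

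Among 40S proteins, the median log2 ratio was 0.75 and 8 of 31 (25.8%) were past 2-fold higher in Th17, against 16.2% of all genes. Rps26, which lies at the mRNA exit channel and is mutated in human Diamond-Blackfan anaemia, had 10786 normalized counts in Th17 against 3724 in ILC3. It was 2.896-fold higher in Th17 (2.79 to 3.003), the largest ratio among members with at least 1000 in both libraries. Rps20, of the subunit's head, had 11951 in Th17 against 5084 in ILC3 (2.35-fold, 2.28 to 2.43). Rps15a had 7272 in Th17 against 3128 in ILC3 (2.32-fold, 2.23 to 2.42). Rps19, another gene of Diamond-Blackfan anaemia, had 6032 in Th17 against 2732 in ILC3 (2.21-fold, 2.11 to 2.31).

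Most 40S genes lay closer to the common factor. Rpsa, which is also known as a laminin receptor precursor, had 26569 in Th17 against 16149.5 in ILC3 (1.65-fold, 1.61 to 1.68). Rps12 and Rps24, the next nearest 40S genes to the members' median, were 1.63-fold and 1.61-fold higher in Th17. Rps6, the substrate of S6 kinases, had 22407 in Th17 against 14541 in ILC3 (1.54-fold, 1.51 to 1.57). Rps3, at the mRNA entry channel, had 16716 in Th17 against 10771 in ILC3 (1.55-fold, 1.52 to 1.59). Rps25, which some viral internal ribosome entry sites require, was 1.77-fold higher in Th17. Rps4x and Rps3a1, among the 5 genes with the most counts in Th17, were 1.86-fold and 1.71-fold higher there.

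The smallest 40S differences were in Rps27, described with the departures, Rps14 and Rps27a. Rps14, whose loss marks the human 5q- syndrome, had 10755 in Th17 against 9141 in ILC3 (1.18-fold, 1.14 to 1.21). Rps27a, made as a fusion with ubiquitin, had 8308 in Th17 against 6556 in ILC3 (1.27-fold, 1.23 to 1.31). Both were higher in Th17 by less than the common factor. With log2 ratios centred on mitochondrial ribosomal protein genes, both turned to the ILC3 side (-0.18 for Rps14 and -0.07 for Rps27a).

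**Figure D3:**
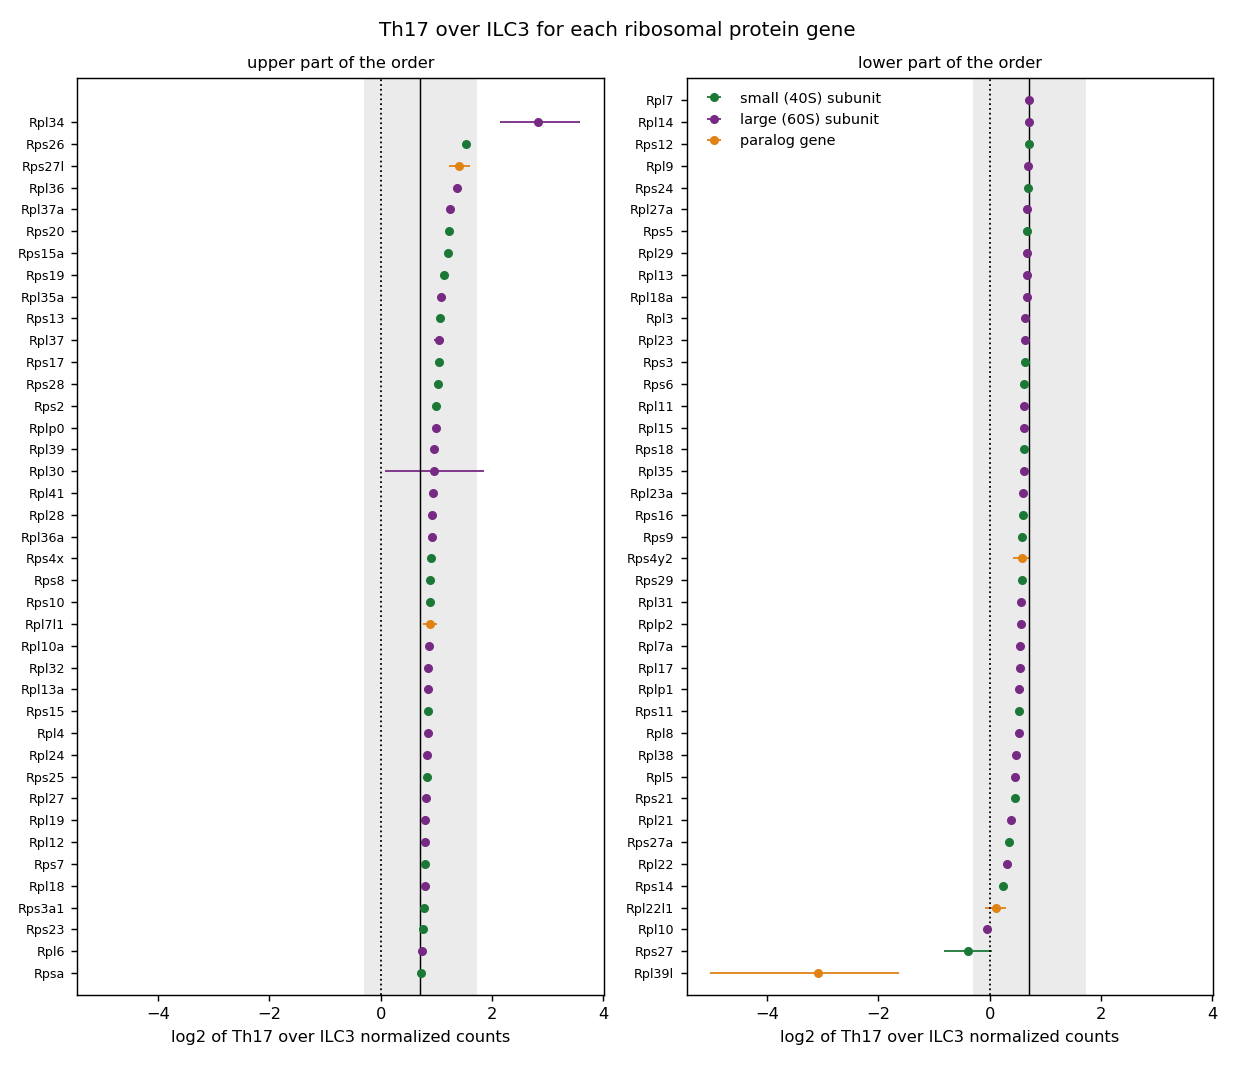
Log2 of the ratio of Th17 to ILC3 normalized counts (horizontal axis) for 81 members ordered by that ratio, with exact 95% counting intervals as bars and subunits in colour. The solid line is the members' median of 0.71, the grey band spans 1 log2 unit on either side of it, and the dotted line marks equal values; Rpl34, Rps27 and Rpl39l lie outside the band.

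Among 60S proteins, the median log2 ratio was 0.70 and 5 of 44 that reached 100 normalized counts (11.4%) were past 2-fold higher in Th17, against 16.2% of all genes. Whether the subunits differ in this share was not tested. Rpl36 had 7285 normalized counts in Th17 against 2803 in ILC3 (2.60-fold, 2.49 to 2.71). Rpl37a had 13200.5 in Th17 against 5574 in ILC3 (2.37-fold, 2.297 to 2.44). Of the stalk proteins, which bind the translation factors, Rplp0 had 33969 in Th17 against 17053 in ILC3 (1.99-fold, 1.96 to 2.03). Rplp1 and Rplp2, its partners in the stalk, were 1.44-fold and 1.48-fold higher in Th17.

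Rpl4, the 60S gene with the most counts in ILC3, had 33388 in Th17 against 18548.5 in ILC3 (1.80-fold, 1.77 to 1.83). Rpl7, which sat at the members' median, had 18296 in Th17 against 11171 in ILC3. Rpl14 and Rpl9, the next nearest, were 1.63-fold and 1.61-fold higher in Th17. Rpl5 and Rpl11, which with 5S ribosomal RNA bind Mdm2 when ribosome assembly is disturbed, both lay under the median. Rpl5 had 19079 in Th17 against 13885 in ILC3 (1.37-fold, 1.34 to 1.40), and Rpl11 had 11691 in Th17 against 7644 in ILC3 (1.53-fold, 1.49 to 1.57).

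Rpl10a was 1.83-fold higher in Th17, and Rpl13a, known for translational silencing in human monocytes, 1.81-fold. Rpl17 was 1.45-fold higher. Rpl38, which mouse development needs for translation of Hox mRNAs, had 5975 in Th17 against 4305 in ILC3 (1.39-fold, 1.33 to 1.44). The smallest 60S differences after Rpl10 were in Rpl22 and Rpl21. Rpl22, needed for αβ T cell development in mice, had 4989 in Th17 against 4037 in ILC3 (1.24-fold, 1.19 to 1.29), and Rpl21 was 1.30-fold higher in Th17. Centred on mitochondrial ribosomal protein genes, Rpl22 and Rpl21 stood at -0.11 and -0.04.

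Rpl10, which joins the 60S subunit late in its assembly and is mutated in human T cell leukaemia, had 15998 in Th17 against 16647 in ILC3. It was 1.04-fold higher in ILC3 (1.018 to 1.064), against the direction of 73 of the 74 members with a mean of at least 1000. Its share of all member counts was 1.53% in Th17 against 2.63% in ILC3, and its rank per kilobase was 25 in Th17 against 5 in ILC3. With only the ILC3 reads counted in groups of 10, an arbitrary size, the interval of Th17 over ILC3 ran over equality, 0.916 to 1.008. Of its transcript's 50-base windows, 92.1% also occurred in another annotated gene. Rpl10 is X-linked, as are Rps4x, Rpl36a and Rpl39, which were at log2 ratios of 0.90, 0.92 and 0.97.

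Members were said to leave the common shift when they lay at least 1 log2 unit from the members' median and reached 100 normalized counts in either library. Of 79 members 2 did so, Rpl34 and Rps27, against 40.6% of all genes at the same distance from that value. It is the members' own median, whereas all genes at that minimum had a median of 0.10, which raises their share. Around each set's own median, the interquartile range was 0.30 for the 79 members and 1.22 for 10431 genes. Rpl34, a 60S protein, had 127 normalized counts in Th17 against 17.9 in ILC3 (108 Th17 reads and 21 ILC3 reads). It was 7.11-fold higher in Th17 (4.43 to 12.0). Rps27, a zinc-finger protein of the 40S subunit, had 84.7 in Th17 against 110.6 in ILC3 (72 Th17 reads and 130 ILC3 reads). It was 1.31-fold higher in ILC3 with an interval that includes equality (0.97 to 1.77). Its distance from the members' median was -1.09, just past the limit. The interval also holds ratios inside the limit, so counting error alone could place Rps27 within the shift. Rpl34 and Rps27 each reached 100 only in the library where they were higher. A minimum in either library thus favours low genes with unequal counts, and it left out Rpl30, low in both libraries. The nearest members inside the limit were Rps26, 0.82 above the median, and Rpl10, 0.77 below it.

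Both departures were genes with few counts for a ribosomal protein. The 73 subunit genes other than these and Rpl30 had at least 3308 in Th17 and at least 1599 in ILC3. Rpl30, a 60S protein, had 32.9 in Th17 against 17.0 in ILC3 (28 Th17 reads and 20 ILC3 reads), and its ratio of 1.94 (1.05 to 3.62) lay near the common factor. No member with at least 1000 normalized counts in both libraries left the shift. Low values in genes with pseudogene copies are uncertain, because the counting may drop or split reads that match several places. Of the transcript's 50-base windows, 98.6% of Rps27, 76.4% of Rpl30 and 50.6% of Rpl34 also occurred in another annotated gene, against a median of 60.6% over the 76 genes. Of 27 members with at least 75% of windows shared, 25 had at least 1000 normalized counts in both libraries. Spearman's rho between the mean level and the shared windows was -0.02 over the 76 genes, and the part of shared sequence in the low values was not tested further.

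**Figure D4:**
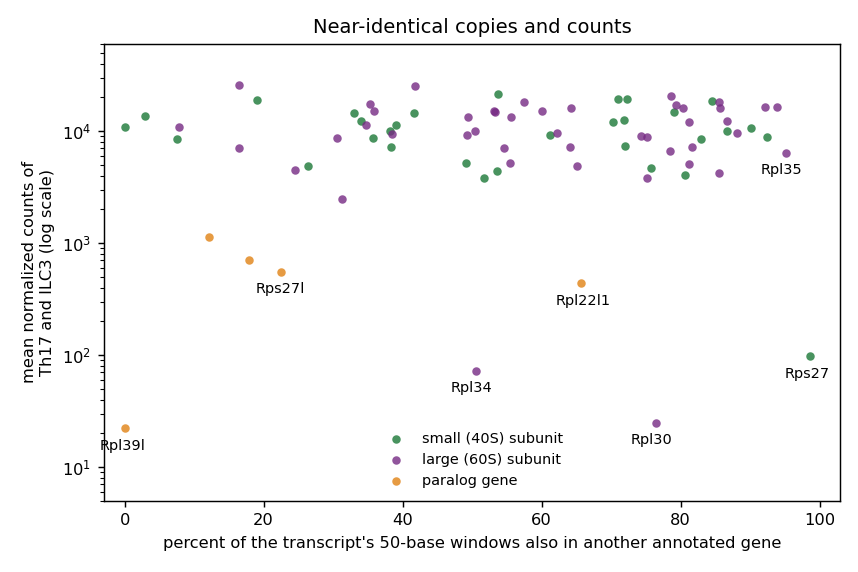
Mean normalized counts of the Th17 and ILC3 libraries (vertical axis, log scale) against the percent of each transcript's 50-base windows that also occur in another annotated gene (horizontal axis), for 81 members by subunit. Rpl34, Rpl30 and Rps27 lie far below the other subunit genes, and Rps27 has the highest shared percent of the 76 subunit genes, 98.6%.

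Other measured features went little with the ratio. Over 73 genes without paralogs and with a mean of at least 1000, Spearman's rho of the log2 ratio was -0.05 with transcript length, -0.08 with GC content, -0.03 with shared windows and -0.19 with the mean level. The transcripts were short, with a median of 740 bases against 2817 for all genes with a mean of at least 10. These correlations run across genes of the same libraries, and genes are not independent replicates.

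The paralog genes were less uniform than the subunit genes and much lower. Rps27l, a copy of Rps27 that p53 induces in human cells, had 807 normalized counts in Th17 against 303 in ILC3 (2.66-fold, 2.34 to 3.04). It exceeded its parent in both libraries, at 953% of Rps27 in Th17 against 274% in ILC3, in a pair where the parent's counts are uncertain. Rpl22l1, a paralog that can take the place of Rpl22, had 454 in Th17 against 422 in ILC3 (1.08-fold, 0.94 to 1.23). It stood at 9.10% of Rpl22 in Th17 (8.18 to 10.1) and 10.4% in ILC3 (9.51 to 11.5). Scaled to total reads the sign of Rpl22l1 turned, at -0.0031 on the log2 scale, and centred on mitochondrial ribosomal protein genes it was -0.31.

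Rpl7l1, at 1457 in Th17 against 791 in ILC3, was 1.84-fold higher in Th17 and at 7.96% of Rpl7 in Th17 against 7.08% in ILC3. Rps4y2, the table's name for the row that RefSeq now lists as Rps4l, a transcribed pseudogene, had 848 in Th17 against 569 in ILC3 (1.49-fold). Its percentage of Rps4x was 3.35 in Th17 against 4.18 in ILC3. Rpl39l, known from male germ cells of mice, had 4.70 in Th17 against 39.97 in ILC3 (4 Th17 reads and 47 ILC3 reads), 8.50-fold higher in ILC3 (3.11 to 32.5). It stayed under 100 in both libraries and is no called difference. Rpl3l, known from striated muscle, had 1 read in Th17 against none in ILC3, where the floor of 3 reads is 2.55 normalized counts.

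Genes that make, modify and regulate ribosomes had a median log2 ratio above 0 in each of the 10 lists below. Except for nucleolar proteins, it was lower than that of the ribosomal proteins. Centring on mitochondrial ribosomal proteins, which moves every value by -0.41, puts the medians of 7 of these lists below 0, leaving 3 above, and scaling to total reads (-0.11) or to the upper quartile (-0.06) puts that of the checkpoint genes below 0. Across all genes with a mean of at least 10 the median was 0.02. Across those that reached 100 normalized counts it was 0.10, above the 0.06 of the checkpoint genes. Of these, 16.2% and 16% were past 2-fold higher in Th17 and in ILC3. Of 14 measured genes of RNA polymerase I transcription, 2 (14.3%) were past 2-fold higher in Th17 against none in ILC3 (median 0.35). These were Cd3eap (223 in Th17, 43.4 in ILC3) and Taf1d (1369 in Th17, 610 in ILC3), both of the polymerase I machinery. Of 16 genes of small nucleolar ribonucleoproteins and ribosomal RNA modification, 2 (12.5%) were past 2-fold higher in Th17 against 1 (6.25%) in ILC3 (median 0.29). Nop56, a core protein of these particles, had 4565 in Th17 against 2211 in ILC3.

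Assembly factors were past 2-fold more often in Th17 than in ILC3. Of 46 factors of small subunit assembly 11 (23.9%) were past 2-fold higher in Th17 against 1 (2.17%) in ILC3 (median 0.31). The shares of all genes were 16.2% and 16%. Rcl1, which acts in early 40S maturation, had 941 in Th17 against 204 in ILC3, and Dhx37, a helicase of the same pathway, had 626 in Th17 against 1681 in ILC3. Of 54 factors of large subunit assembly 10 (18.5%) were past 2-fold higher in Th17 against none in ILC3 (median 0.53). That 18.5% is near the share of all genes. Nip7 had 1177 in Th17 against 193 in ILC3. Of 6 nucleolar proteins 1 (16.7%) was past 2-fold higher in Th17 (median 0.89). That was nucleophosmin, Npm1, at 13677 in Th17 against 6582 in ILC3, and nucleolin, Ncl, had 19995 in Th17 against 10463 in ILC3. Of 6 dedicated chaperones of ribosomal proteins none was past 2-fold in either direction (median 0.28).

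Ribosome components that the names used for the members leave out had ratios near those of the members, all under the members' median. Among them was Rpl36al, at 2888 in Th17 against 1836 in ILC3. The scaffold protein gene Gnb2l1, also known as Rack1, had 21402 in Th17 against 14369 in ILC3. The 4 such genes had a median of 0.57 and none was past 2-fold.

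Regulators of TOP mRNAs and mTORC1 were mixed. Of 18 measured, 1 (5.56%) was past 2-fold higher in Th17 against none in ILC3 (median 0.29). That was Eif4ebp1, a translation repressor that mTORC1 inactivates, at 321 in Th17 against 149.7 in ILC3. Larp1, the TOP-binding repressor, had 8064 in Th17 against 4142 in ILC3, and Pabpc1, whose mRNA is itself of the TOP class, had 42847 in Th17 against 24144 in ILC3. The 6 genes of the checkpoint for ribosomal stress had a median of 0.06. Only Myc (16.7% of them), which drives ribosome production, was past 2-fold, at 2246 in Th17 against 866 in ILC3. Of 13 ribosome quality control genes none was past 2-fold (median 0.23).

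Mitochondrial ribosomal proteins, which form the ribosomes of mitochondria and are encoded by other nuclear genes, had a lower and wider shift. Of 76 measured, 15 were past 2-fold higher in Th17 against 1 in ILC3 (Mrpl38, at 295 in Th17 against 601 in ILC3), with a median of 0.41 and an interquartile range of 0.74. The 15 are 19.7%, near the 16.2% of all genes past 2-fold higher in Th17, and the 1 is 1.32%, against 16% of all genes past 2-fold higher in ILC3. Their share of reads was 0.161% in Th17 against 0.134% in ILC3, a ratio of 1.20 (1.18 to 1.22), against 1.53 for the cytosolic genes.

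**Figure D5:**
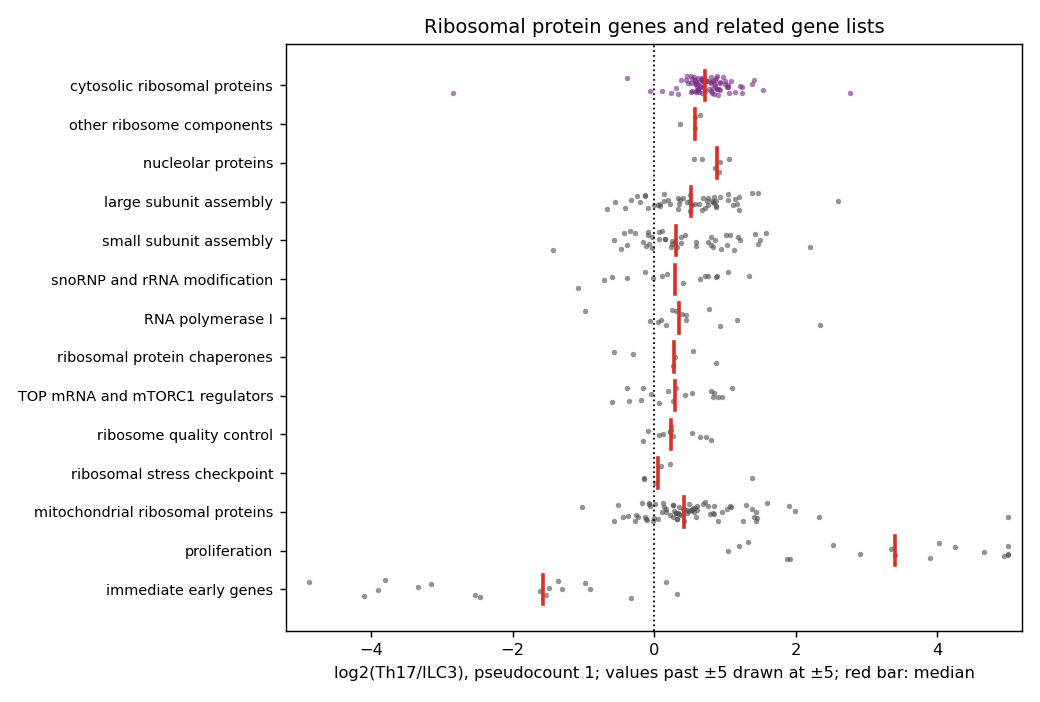
Log2(Th17/ILC3) of every measured gene (points, horizontal axis) in the cytosolic ribosomal protein genes and 13 related lists (rows), with red bars at the medians and values past ±5 drawn at ±5. The cytosolic genes cluster at 0.71, proliferation genes lie far to the Th17 side and immediate early genes to the ILC3 side.

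The authors' deposited table gave an adjusted p of 1 for 82 of 82 members, and its lowest unadjusted p among them was 0.107, for Rps26. In the same deposited table of the authors, 306 genes had an adjusted p under 0.05. Both groups were single libraries in that comparison too.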

How the data were processed

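RNA of 2 libraries, 1 of Th17 cells and 1 of ILC3s, was analysed; the titles gave the groups. TruSeq libraries were made from Trizol-extracted total RNA, per the labels. TopHat2 2.0.6, HTSeq 0.5.4p3, DESeq 1.12.0 and build mm8 are named by the submitters' processing notes, without order, settings or strand handling. The values used are the authors' deposited normalized counts (signal), which the header calls means. The p-values and adjusted p-values come from the same table the authors deposited. The table ends in 2 further columns with the same headings, filled in 896 rows, which were not used. Names of 24 rows had turned into dates and were left out, leaving 17024 genes.

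Whole reads were recovered by dividing by the lowest value above 0, and 100% of values came out whole within 0.001 reads. Since groups were single libraries, no count model was fitted and no p-value was computed. Log2 ratios used a pseudocount of 1, which understates low genes. Medians used genes with a mean of at least 10, and calls used at least 2-fold with at least 100 in the higher library. The floor for a gene at 0 was 3 reads, 3.53 normalized counts in Th17 against 2.55 in ILC3.

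Members and gene lists were chosen with earlier results of these data known. Named genes were departures from the shift, paralogs, the stalk genes and Rpsa, a fixed set of members with known roles, the members with the most and fewest counts, those nearest to and farthest from the members' median in each subunit, and some members of each list by size of ratio or level. Larp1, Dhx37, Mrpl38 and the members named for sequence, level per kilobase, X linkage or shared windows were chosen after their values were seen. A few list genes are not reported singly here. Transcript length, GC and shared 50-base windows came from 1 representative transcript a gene of GENCODE M21, and starts from RefSeq (GRCm38.p6), another build than the authors', so no coordinates are given. The calculations were tested on simulated counts. Calculations ran in Python 3.11.15 with scipy 1.17.1, numpy 2.4.6 and pandas 2.3.3, and plots in matplotlib 3.10.9.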

Additional observations from a re-analysis of the deposited data

How the results depend on the processing

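No paired analysis was possible because each group had 1 library, and for the same reason no replicate could be left out. The members' median of 0.71 was 0.60 when libraries were scaled to total reads, 0.65 scaled to the upper quartile, 0.30 centred on mitochondrial ribosomal proteins and 0.70 with a pseudocount of 10. Scaling to total reads moved the median of all genes by -0.11 and the mitochondrial centring by -0.41. Under total, upper quartile and mitochondrial scaling, 8, 9 and 2 members were past 2-fold higher in Th17, in place of 14. At a 1.5-fold threshold 60 were, and at 4-fold 1 was. Shares of all genes were not computed at the changed settings of this section. Counts of members under them are therefore no result about the members. Past 2-fold higher in ILC3 was 1 member, Rpl39l, with a minimum of 10 or with no minimum. Of the departures from the shift, 7 were found at 1.5-fold and 1 (Rpl34) at 4-fold. With a minimum of 10 or with no minimum there were 3, as Rpl39l joined Rpl34 and Rps27. With only members at 1000 normalized counts in both libraries, a setting chosen after seeing the data, 0 left it. The ratio of read shares was 1.49 without the 20 most read genes of either library. Of 205 values of 41 named members under 5 scalings and pseudocounts, 199 kept their sign and 6 changed it. Those were Rpl22l1 under total and mitochondrial scaling and Rpl21, Rpl22, Rps14 and Rps27a under mitochondrial scaling. A pseudocount adds the same value to both libraries and cannot change a sign, so only the scalings could. The 199 therefore overstate how stable the signs are. Comparisons of protein sequence that had been planned were not run. Depth limits Rpl3l, Rpl39l, Rpl30, Rpl34 and Rps27, which had at most 130 reads in a library.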

Other observations

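The table also held 5 rows named as pseudogenes of ribosomal protein genes, which the names used for the members leave out. Rps15a-ps6 had 68.2 normalized counts in Th17 against 2.55 in ILC3 (58 Th17 reads and 3 ILC3 reads), 26.7-fold higher in Th17 (8.71 to 133). Rps15a-ps4 had 48.2 in Th17 against 11.1 in ILC3 (4.36-fold, 2.29 to 8.87). Their parent gene Rps15a was 2.32-fold higher in Th17. Rpl34-ps1 was listed at 0 in Th17 and at 11.9 in ILC3 (14 reads), while Rpl34 itself was higher in Th17. The ILC3 value of Rpl34-ps1 was 3.38 times the floor of 3 reads in the Th17 library. That figure leaves out the counting error of the 14 reads, and the interval of Th17 over ILC3 was 0 to 0.417. Rps19-ps3 had 5.88 in Th17 against 0 in ILC3, and Rpl31-ps12 had 4.70 in Th17 against 6.80 in ILC3. Reads of such copies and of their parents may be exchanged by the counting, and with so few reads none of the 5 is a called difference.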
